A study of Mus musculus with 14 samples.

Results

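A set of 8 genes that steer effector CD8+ T cells between blood, lymphoid tissue and inflamed sites was followed across 14 mouse arrays. They were chosen by name, with earlier results of these data known. The set held the fractalkine receptor gene Cx3cr1, the sphingosine 1-phosphate receptor genes S1pr5 and S1pr1, and their regulator Klf2. It also held the chemokine receptor genes Cxcr3, Ccr2, Cxcr6 and Cxcr4. The 8 genes were among the 19937 genes named on the array, and each was read by 1 of its 34760 probe sets. All 8 passed the filter on low signal, which 14438 genes passed.

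The cells were OT-I CD8+ T cells of strain C57BL/6J, which recognise an ovalbumin peptide, sorted on day 6 after infection with Listeria that expressed ovalbumin. In every group the donor cells came from fetal liver chimeras and had been moved into congenic recipients before infection. Wild-type (WT) cells were sorted into KLRG1hi cells (3 arrays), the terminal effectors, and KLRG1lo cells (5 arrays). The mutant donors carried the labels Id2KO, BimKO or Id2KOBimKO, and only their KLRG1lo cells were hybridised, on 2 arrays per genotype. Id2 is a protein that keeps E proteins off DNA, and Bim, encoded by Bcl2l11, promotes cell death. Nothing in the labels says that arrays of a group came from separate animals, so each p-value measures the spread between these samples, which may be technical. In a bulk sort, fewer cells that express a gene and less RNA per cell cannot be told apart.

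CX3CR1 binds fractalkine on endothelium and marks effector cells that stay in the blood, and S1PR5 and S1PR1 sense the sphingosine 1-phosphate that is high in blood and lymph. S1PR1 carries T cells out of lymphoid organs under the control of the transcription factor KLF2, and the surface protein CD69 removes S1PR1 from the membrane. CXCR3 follows interferon-induced chemokines into inflamed tissue, CCR2 follows monocyte chemoattractants, CXCR6 binds CXCL16 and is carried by many cells that settle in tissue, and CXCR4 binds CXCL12 of bone marrow and stroma. E proteins bind the E box, written CANNTG, and KLF proteins bind CACCC words, which is why these words were looked for in the promoters.

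The RefSeq table of promoters (assembly GRCm38.p6) held 7 of the 8 genes, and the 250 bases before the start site are printed for the 4 whose values differed most between arrays. They are read 5′ to 3′ on the gene's own strand, in lower case, with capitals for each E box CANNTG and each CACCC or its reverse complement GGGTG. They lie at chr9:120068297-120068546 on the minus strand for Cx3cr1, chr9:21248444-21248693 on the minus strand for S1pr5, chrX:101734148-101734397 on the minus strand for Cxcr3 and chr9:123806227-123806476 on the plus strand for Cxcr6.
Cx3cr1: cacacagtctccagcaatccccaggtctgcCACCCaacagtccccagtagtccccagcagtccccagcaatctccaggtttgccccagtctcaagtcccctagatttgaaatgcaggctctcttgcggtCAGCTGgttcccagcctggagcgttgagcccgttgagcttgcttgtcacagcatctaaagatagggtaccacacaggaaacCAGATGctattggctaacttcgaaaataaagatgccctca
S1pr5: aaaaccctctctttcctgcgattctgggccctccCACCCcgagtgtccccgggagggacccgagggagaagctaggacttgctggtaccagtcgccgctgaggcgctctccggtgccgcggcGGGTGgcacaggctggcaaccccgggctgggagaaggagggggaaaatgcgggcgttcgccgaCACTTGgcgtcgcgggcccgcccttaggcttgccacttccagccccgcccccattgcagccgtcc
Cxcr3: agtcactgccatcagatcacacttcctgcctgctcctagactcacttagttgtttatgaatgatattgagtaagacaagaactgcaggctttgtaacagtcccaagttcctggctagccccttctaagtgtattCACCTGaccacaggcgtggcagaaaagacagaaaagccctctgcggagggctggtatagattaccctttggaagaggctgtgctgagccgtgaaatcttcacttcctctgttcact
Cxcr6: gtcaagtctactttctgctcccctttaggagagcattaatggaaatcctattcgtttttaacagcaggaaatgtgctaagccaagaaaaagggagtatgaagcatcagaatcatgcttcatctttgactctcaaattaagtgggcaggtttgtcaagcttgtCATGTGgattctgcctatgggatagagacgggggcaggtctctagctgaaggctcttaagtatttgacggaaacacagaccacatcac

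In the Cx3cr1 promoter the E boxes were CAGCTG at position -121 and CAGATG at position -40, counted from the start site. S1pr5 held CACTTG at position -65, Cxcr3 held CACCTG at position -116 and Cxcr6 held CATGTG at position -88. An E box stood in 5 of the 7 promoters, against 66.2% of all 32851 promoters of the table searched on both strands. The narrower word CAGCTG was in 1 of the 7 against 13% of all, and CAGGTG or its complement CACCTG was in 1 of the 7 against 17.2%. A CACCC word was in 4 of the 7, those of Cx3cr1, S1pr5, Klf2 and Cxcr4, against 52.0% of all. The T box word TCACACC or GGTGTGA was in 0 of the 7 and in 3.33% of all. Cx3cr1, S1pr5, Cxcr6 and Ccr2 all lie on chromosome 9, and in the RefSeq gene order 4 protein-coding genes, Xcr1, Ccr1, Ccr1l1 and Ccr3, stand between Cxcr6 and Ccr2.

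Klrg1, the gene of the sorted protein, had a log2 signal of 11.04 ± 0.50 (SD, n = 3) on the KLRG1hi arrays and 6.28 ± 0.29 (SD, n = 5) on the WT KLRG1lo arrays. Id2 itself differed by -1.13 between Id2KO and WT (adjusted p = 0.0162, and 0.212 or 0.793 without Id2KO array 1 or 2) and by -1.10 between Id2KOBimKO and BimKO (adjusted p = 0.587). Bcl2l11 read 7.51 ± 0.21 (SD, n = 2) in BimKO against 7.60 ± 0.19 (SD, n = 5) on the WT KLRG1lo arrays and did not pass (adjusted p = 0.882), so BimKO and Id2KOBimKO stand below for the arrays with those labels. Both Id2KO arrays stood apart in the X-linked transcript Xist, at 4.47 to 4.99 against 8.37 to 10.36 on the other 12 arrays, and in the Y-linked gene Eif2s3y, at 7.39 to 8.20 against 2.92 to 3.66. These transcripts differ together with the Id2KO label, so for every gene a sex difference and the Id2KO genotype cannot be told apart wherever the Id2KO arrays enter, the mean Id2 effect and the interaction included. Id2KOBimKO and BimKO did not differ in this way. Of the 8 genes, Cxcr3 is X-linked. Cd3e lay at 10.38 to 11.03 and Cd8a at 11.29 to 11.97 on all arrays. Ncr1, which defines NK cells, stayed at 3.65 to 4.93, under the lowest array median of probe sets with no gene name (5.01). The spread of an array, taken as the interquartile range over its log2 signals, ran from 2.44 to 2.87. Array medians of the unnamed probe sets parted the arrays at a gap of 0.085 into 6 with a lower and 8 with a higher background. The 6 come first in the sample order of the series and the 8 come last. Both BimKO arrays were among the 8, while arrays of every other group fell in both sets. A difference between the sets may thus enter a comparison of BimKO with all WT KLRG1lo arrays. The highest correlation of 2 arrays was 0.992 between groups and 0.984 within a group.

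Cx3cr1 was the most variable of the 8 genes, with a range of 4.26 log2 units over the 14 arrays. The KLRG1hi arrays read 9.76, 10.61 and 10.78 for Cx3cr1, and the WT KLRG1lo arrays read 8.21, 8.56, 8.02, 8.48 and 8.44. Every KLRG1hi array thus lay above every KLRG1lo array. S1pr5 had the same order of sorts, with 8.78, 8.90 and 9.45 on the KLRG1hi arrays and 7.30, 7.40, 7.48, 7.02 and 7.40 on the WT KLRG1lo arrays. For both genes the groups did not overlap.

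**Figure D1:**
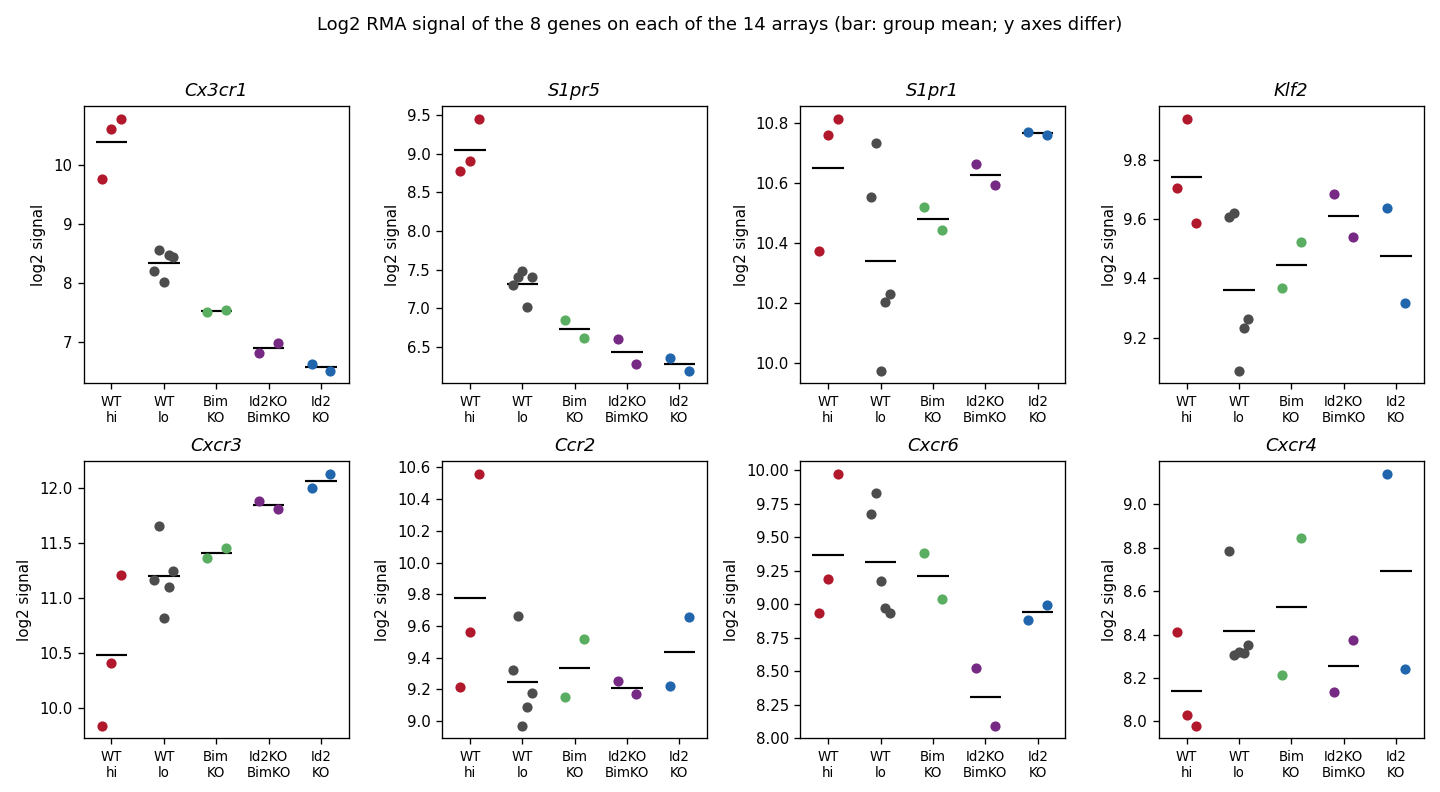
Log2 RMA signal (y axes differ between panels) of the 8 genes on each array, with 1 point per array, the 5 groups along the x axis and a bar at each group mean. Cx3cr1 falls from WT KLRG1hi through WT KLRG1lo, BimKO and Id2KOBimKO to Id2KO with no overlap of groups, while Klf2 and S1pr1 keep within 0.85 and 0.84 log2 units over all arrays.

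Cx3cr1 was higher in KLRG1hi than in KLRG1lo WT cells by 2.04 on the log2 scale (SE 0.20, 95% interval 1.63 to 2.46), a 4.12-fold difference (limma adjusted p = 2.99e-05). S1pr5 was higher by 1.72 (SE 0.17, 95% interval 1.37 to 2.08), a 3.30-fold difference (adjusted p = 3.01e-05). They stood at ranks 4 and 5 of the 14438 genes by p-value. They were the 2 of the 8 genes that passed, that is, had an adjusted p under 0.05, and both were higher. Over all genes tested, 0.942% passed in this comparison and 0.679% passed as higher. Both calls held in all 20 alternative settings, with Cx3cr1 between 1.81 and 2.46 and S1pr5 between 1.49 and 2.15. The summed linear signal of the NK marker list was also higher, at 692 to 1843 on the KLRG1hi arrays and 275 to 540 on the WT KLRG1lo arrays. On each KLRG1hi array 1 of the 6 NK genes lay above the 95th percentile of the unnamed probe sets. On the arrays of every other group 0 of the 6 did, so the sums there are near background. Of the 6 NK genes on the array 3 were tested and 1 passed, Klrb1c, with a difference of 2.92 (adjusted p = 3.12e-05). Monocyte and macrophage markers, the other cells known for Cx3cr1, summed to 1283 to 1351 on the KLRG1hi arrays and 1186 to 1751 on the WT KLRG1lo arrays, and 0 of 7 tested passed. Their part in the Cx3cr1 and S1pr5 differences was not tested.

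S1pr1, the receptor for exit from lymphoid tissue, gave no call between the sorts. Its arrays read 10.37, 10.76 and 10.81 in KLRG1hi and 10.55, 10.73, 9.97, 10.20 and 10.23 in WT KLRG1lo, and the groups overlapped. The difference of 0.31 (SE 0.17, 95% interval -0.05 to 0.67) had an adjusted p of 0.827. For Klf2 the arrays read 9.71, 9.94 and 9.59 against 9.61, 9.62, 9.09, 9.23 and 9.26. KLRG1hi arrays 1 and 2 lay above all 5 KLRG1lo arrays, and KLRG1hi array 3 lay among them, so the groups overlapped. The Klf2 difference of 0.38 (SE 0.16, 95% interval 0.05 to 0.71) had an unadjusted p of 0.0266 and an adjusted p of 0.543. The lower bound of the S1pr5 interval (1.37) lay above the upper bound of the S1pr1 interval (0.67).

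Cxcr3 differed in the other direction and did not pass. The KLRG1hi arrays read 9.84, 10.41 and 11.21, and the WT KLRG1lo arrays read 11.16, 11.66, 10.82, 11.10 and 11.24. KLRG1hi arrays 1 and 2 lay below all 5 KLRG1lo arrays, and KLRG1hi array 3 lay among them. The difference was -0.71 (SE 0.23, 95% interval -1.21 to -0.22, unadjusted p = 0.00744, adjusted p = 0.287). Without KLRG1hi array 3 it was -1.07 (adjusted p = 0.00951), and with the spread as a covariate it was -0.83 (SE 0.13, adjusted p = 0.00149). Among the 6 arrays of lower background Cxcr3 differed by -1.29 (adjusted p = 9.24e-05), and among the 8 of higher background, which hold KLRG1hi array 3 alone of its group, by 0.15 (adjusted p = 0.63).

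Ccr2, Cxcr6 and Cxcr4 did not pass either. Ccr2 read 9.22, 9.57 and 10.56 on the KLRG1hi arrays and 9.33, 9.66, 8.97, 9.09 and 9.18 on the WT KLRG1lo arrays, a difference of 0.53 (SE 0.24, adjusted p = 0.643). Cxcr6 read 8.94, 9.19 and 9.97 against 9.68, 9.83, 9.18, 8.97 and 8.93, a difference of 0.05 (95% interval -0.46 to 0.56). KLRG1hi array 3 gave the highest value of all 14 arrays for both Ccr2 and Cxcr6, and array 1 the lowest of its group for both. Among the 8 arrays of higher background, where array 3 alone stood for KLRG1hi, Ccr2 differed by 1.48 and Cxcr6 by 0.95. The spread within KLRG1hi is not seen in that setting. Among the other 6 they differed by -0.10 (adjusted p = 0.867) and -0.69 (adjusted p = 0.124). Cxcr4 read 8.41, 8.03 and 7.98 on the KLRG1hi arrays and 8.79, 8.31, 8.32, 8.32 and 8.35 on the WT KLRG1lo arrays. Its difference was -0.28 (SE 0.20, adjusted p = 0.928), and KLRG1hi array 1 lay among the KLRG1lo arrays. Markers of B cells, which also carry Cxcr4, summed to 225 to 305 on the KLRG1hi arrays and 297 to 954 on the WT KLRG1lo arrays, and 0 of 6 tested passed. Within WT KLRG1lo the sums were 297 and 299 on arrays 1 and 2, of lower background. On arrays 3, 4 and 5, of higher background, they were 932, 954 and 710. Markers of gamma delta T cells, which can carry Ccr2 and Cxcr6, summed to 198 to 272 and 209 to 289, and 0 of 3 tested passed. Their part in these values was not tested.

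Over the 8 genes the median difference between the sorts was 0.35, against 0.002 over all genes tested. An unadjusted p under 0.05 was reached by 5 of the 8, against 7.20% of all genes, and arrays of the sorts did not overlap for 2 of the 8, against 4.18%.

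**Figure D2:**
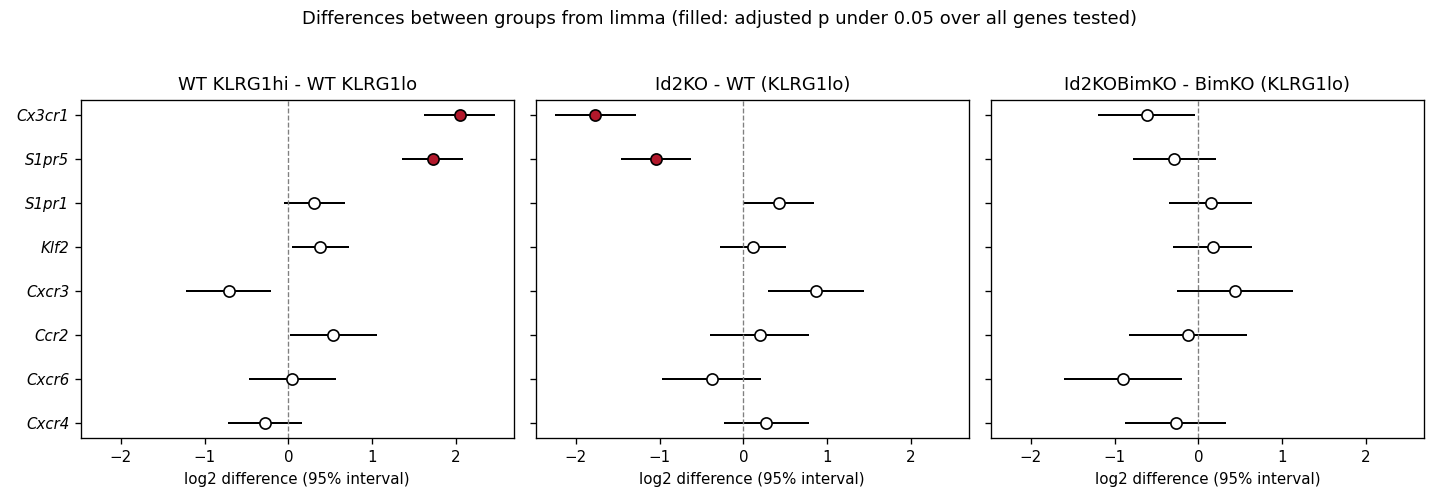
Log2 difference of each gene (x axis) with its 95% interval from limma, for KLRG1hi minus KLRG1lo in WT, Id2KO minus WT and Id2KOBimKO minus BimKO, with filled points for an adjusted p under 0.05 over all genes tested. Cx3cr1 and S1pr5 are filled on the right in the first panel (2.04 and 1.72) and on the left in the second (-1.77 and -1.05), and no point is filled in the third.

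Cx3cr1 and S1pr5 fell in KLRG1lo cells from donors labelled Id2KO. Cx3cr1 read 6.62 and 6.51 on the Id2KO arrays, below all 5 WT KLRG1lo arrays (8.02 to 8.56). It fell by 1.77 on the log2 scale (SE 0.22, 95% interval of the difference -2.24 to -1.30), 3.41-fold, with an adjusted p of 0.00105 and rank 6 of the genes tested. S1pr5 read 6.36 and 6.19 on the Id2KO arrays against 7.02 to 7.48 on the WT KLRG1lo arrays. It fell by 1.05 (SE 0.19, adjusted p = 0.04), 2.06-fold. This comparison and that of the WT sorts share the WT KLRG1lo arrays, so the opposite signs in them are not independent. Of the 8 genes 2 passed and both were lower, where 0.111% of all genes passed and 0.0277% passed as lower. NK markers summed to 208 to 214 on the Id2KO arrays and 275 to 540 on the WT KLRG1lo arrays, and their part was not tested. The Xist and Eif2s3y difference of the Id2KO arrays also coincides with both calls. The Cx3cr1 call was lost without Id2KO array 2 (adjusted p = 0.0918). The S1pr5 call was near the threshold and was kept in 10 of 19 alternative settings. It was lost without Id2KO array 1 or 2 (differences of -1.13 and -0.96) and among the 6 arrays of lower background (-0.99). Each of these left a lone Id2KO array. It was also lost without WT KLRG1lo array 1, 3 or 5 (adjusted p = 0.0916, 0.111 and 0.12). An offset of 16 before the log (0.064), the background set as a block (0.0522) and the replicate number as a block (0.34) lost it too. The S1pr5 difference stayed between -1.28 and -0.91 in all 19 settings.

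Cxcr3 was the gene of the 8 whose Id2KO arrays lay farthest above WT. It read 11.995 and 12.13 on the Id2KO arrays, above all 5 WT KLRG1lo arrays. The difference of 0.87 (SE 0.27, 95% interval 0.30 to 1.43) had an unadjusted p of 0.00496 and an adjusted p of 0.275. With the spread as a covariate it was 0.26 (adjusted p = 1), the smallest of 19 settings. The Id2KO arrays had spreads of 2.83 and 2.87, above those of all 5 WT KLRG1lo arrays. The largest difference was 1.07, among the 8 arrays of higher background, which hold Id2KO array 2 alone of its group. S1pr1 read 10.77 and 10.76 on the Id2KO arrays, also above all 5 WT KLRG1lo arrays, with a difference of 0.43 (SE 0.19, adjusted p = 0.275) that was 0.06 with the spread as a covariate. The adjusted p-values of both missed the threshold.

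Cxcr6, Cxcr4, Ccr2 and Klf2 gave smaller differences between Id2KO and WT, with adjusted p-values of 0.36 to 0.647. Cxcr6 read 8.88 and 8.995 in Id2KO and differed by -0.38 (SE 0.28), within the range of the WT arrays (8.93 to 9.83) on 1 of the 2 arrays. Cxcr4 read 9.14 and 8.24, so that Id2KO array 1 was the highest of all 14 and array 2 lay below every WT KLRG1lo array. Ccr2 read 9.22 and 9.66 (difference 0.19) and Klf2 read 9.64 and 9.32 (difference 0.11). Arrays of Id2KO and WT did not overlap for 4 of the 8 genes, Cx3cr1, S1pr5, Cxcr3 and S1pr1, where 28.5% of all genes did the same, and 4 of the 8 had an unadjusted p under 0.05 against 18.1% of all genes.

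The second test of Id2 loss compared Id2KOBimKO with BimKO, which shares no array with the first. Cx3cr1 read 6.82 and 6.99 in Id2KOBimKO and 7.50 and 7.55 in BimKO, so the groups did not overlap. The difference of -0.62 (SE 0.27, 95% interval -1.19 to -0.05) had an unadjusted p of 0.0336 and an adjusted p of 1. S1pr5 read 6.599 and 6.27 against 6.84 and 6.61, a difference of -0.29 (SE 0.23, adjusted p = 1). Cxcr3 read 11.88 and 11.80 against 11.36 and 11.45, a difference of 0.44 (SE 0.32, adjusted p = 1). All 3 differences had the sign seen between Id2KO and WT, at a smaller size.

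Cxcr6 had the largest of these differences among the 8 genes. It read 8.52 and 8.09 on the Id2KOBimKO arrays, the 2 lowest values of all 14, and 9.38 and 9.04 on the BimKO arrays. The difference was -0.90 (SE 0.33, 95% interval -1.60 to -0.21, unadjusted p = 0.0141, adjusted p = 1). S1pr1 differed by 0.15, Klf2 by 0.17, Ccr2 by -0.12 and Cxcr4 by -0.27, each with an adjusted p of 1. By limma 0 of the 8 genes passed here, as did 0% of all genes tested, and 2 of the 8 had an unadjusted p under 0.05 against 1.81% of all genes. Arrays of the groups did not overlap for 6 of the 8, where 29.7% of all genes did the same.

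Averaged over both Bim backgrounds, Cx3cr1 was lower by a difference of -1.20 (SE 0.18, adjusted p = 0.00367), and it was the 1 of 8 genes that passed, against 0.180% of all genes and 0.0277% as lower. The Id2KO arrays that stood apart in Xist enter this mean. S1pr5 differed by -0.67 (SE 0.15, unadjusted p = 0.000347, adjusted p = 0.132), Cxcr3 by 0.65 (adjusted p = 0.529), Cxcr6 by -0.64 (adjusted p = 0.591) and S1pr1 by 0.29 (adjusted p = 0.62). An unadjusted p under 0.05 was reached by 4 of the 8, against 7.11% of all genes. Klf2 differed by 0.14, Ccr2 by 0.04 and Cxcr4 by 0.001. With the spread as a covariate, Cxcr6 differed by -0.997 (SE 0.15, adjusted p = 0.00425) and S1pr5 by -0.81 (adjusted p = 0.0143), so that both passed in that setting. The difference between the Id2 effects of the Bim backgrounds was tested as an interaction. It was 1.15 for Cx3cr1 (SE 0.35, unadjusted p = 0.00427, adjusted p = 0.726) and 0.76 for S1pr5 (SE 0.30, adjusted p = 0.726), and 0 of the 8 genes passed against 0.0277% of all genes, with 2 of the 8 at an unadjusted p under 0.05 against 4.27%.

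The arrays labelled BimKO also lay below WT KLRG1lo in Cx3cr1 and S1pr5. The differences were -0.82 for Cx3cr1 (SE 0.22, unadjusted p = 0.00199) and -0.59 for S1pr5 (SE 0.19, unadjusted p = 0.00667), each with an adjusted p of 0.657, and the groups did not overlap for either. By limma 0 of the 8 genes passed, as did 0% of all genes, 2 of the 8 had an unadjusted p under 0.05 against 6.91%, and 2 of the 8 did not overlap against 12.6%. The other 6 genes differed by -0.11 to 0.21. Id2KOBimKO against WT, which shares the WT arrays, gave -1.44 for Cx3cr1 (SE 0.22, adjusted p = 0.0182), the 1 of 8 that passed against 0.0623% of all genes and 0.0139% as lower. NK markers summed to 178 to 245 on the Id2KOBimKO arrays and 275 to 540 on the WT KLRG1lo arrays without overlap, 0 of 3 tested passed, and their part was not tested. An unadjusted p under 0.05 was reached by 4 of the 8 against 3.95% of all genes, and arrays did not overlap for 4 of the 8 against 12.6%. This call was lost without either Id2KOBimKO array (adjusted p = 0.555 and 0.444) and without WT KLRG1lo array 1, 4 or 5 (0.052, 0.054 and 0.0624). S1pr5 differed by -0.88 (adjusted p = 0.177), Cxcr3 by 0.65 (adjusted p = 0.785) and Cxcr6 by -1.01 (SE 0.28, unadjusted p = 0.00194, adjusted p = 0.779). With the spread as a covariate, the Cxcr6 difference was -1.27 (adjusted p = 0.00374) and the S1pr5 difference -0.99 (adjusted p = 0.0145). Between Id2KOBimKO and Id2KO 0 of the 8 passed against 0.0277% of all genes, and 0 of the 8 had an unadjusted p under 0.05 against 0.803%, while arrays did not overlap for 4 of the 8 against 37.4%. There Cx3cr1 differed by 0.33 and Cxcr6 by -0.63 (unadjusted p = 0.0728).

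Set side by side over the 5 groups, the 8 genes fell into different orders. Cx3cr1 ran from KLRG1hi (10.38 ± 0.54, n = 3) through WT KLRG1lo (8.34 ± 0.22, n = 5), BimKO (7.52 ± 0.03, n = 2) and Id2KOBimKO (6.90 ± 0.12, n = 2) to Id2KO (6.57 ± 0.08, n = 2), each mean with its SD. No pair of groups overlapped for Cx3cr1, which held for 7 of the 14438 genes (0.0485%). S1pr5 kept that order of means, 9.04 ± 0.36, 7.32 ± 0.18, 6.73 ± 0.16, 6.44 ± 0.23 and 6.27 ± 0.12, and its Id2KOBimKO and Id2KO arrays overlapped. Cxcr3 had the opposite order of means, from 12.06 ± 0.09 in Id2KO through 11.84 ± 0.05 in Id2KOBimKO, 11.40 ± 0.07 in BimKO and 11.19 ± 0.30 in WT KLRG1lo to 10.48 ± 0.69 in KLRG1hi. For Cxcr3 the BimKO and WT KLRG1lo arrays overlapped, as did those of the WT sorts. Cxcr6 had overlapping arrays in KLRG1hi, WT KLRG1lo and BimKO (means 9.37, 9.32 and 9.21). Its mean was lower in Id2KO (8.94 ± 0.08), whose arrays overlapped those of both WT sorts, and lowest in Id2KOBimKO (8.31 ± 0.31). For Klf2, Ccr2 and Cxcr4 each group overlapped its neighbour in the order of means, and for S1pr1 the one pair of neighbours apart was Id2KOBimKO and BimKO.

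The genes also differed in how far they stood above the probe sets with no gene name. On its lowest array Cx3cr1 was above 72.3% of them and S1pr5 above 67.3%, and on its highest array above 98.6% and 95.8%. RMA signal near the background of the array can understate a fold change. Whether folds against the groups low in Cx3cr1 and S1pr5 are understated was not measured here. S1pr1 stayed above at least 97.6% and Klf2 above at least 95.3% on all 14 arrays.

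The closest profiles over the 14 arrays were found by Pearson correlation, given as a description since arrays share their group and their spread. For Cx3cr1 they were S1pr5 (r = 0.971), Zeb2 (0.966) and Nuf2 (0.957), and for S1pr5 they were Cx3cr1 (0.971), Stmn1 (0.962) and Zeb2 (0.960). For Cxcr3 they were Sidt1 (0.985), Sit1 (0.980) and Cd27 (0.978), and for S1pr1 they were Csnk1g2 (0.973), Rasa3 (0.967) and Cdc42se1 (0.965). Ccr2 was nearest to Sytl2 (0.929), Itgb2 (0.925) and Mapkapk3 (0.922), and Klf2 to Msrb1 (0.937), Taf12 (0.917) and Mcm3 (0.911). Cxcr6 was nearest to Zfp512 (0.829), Akr1c13 (0.811) and Id2 itself (0.794), and Cxcr4 to Gemin4 (0.807), Ifitm1 (0.798) and Smyd2 (0.730). Of the 8 genes, Cxcr4 had the lowest top correlation.

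**Figure D3:**
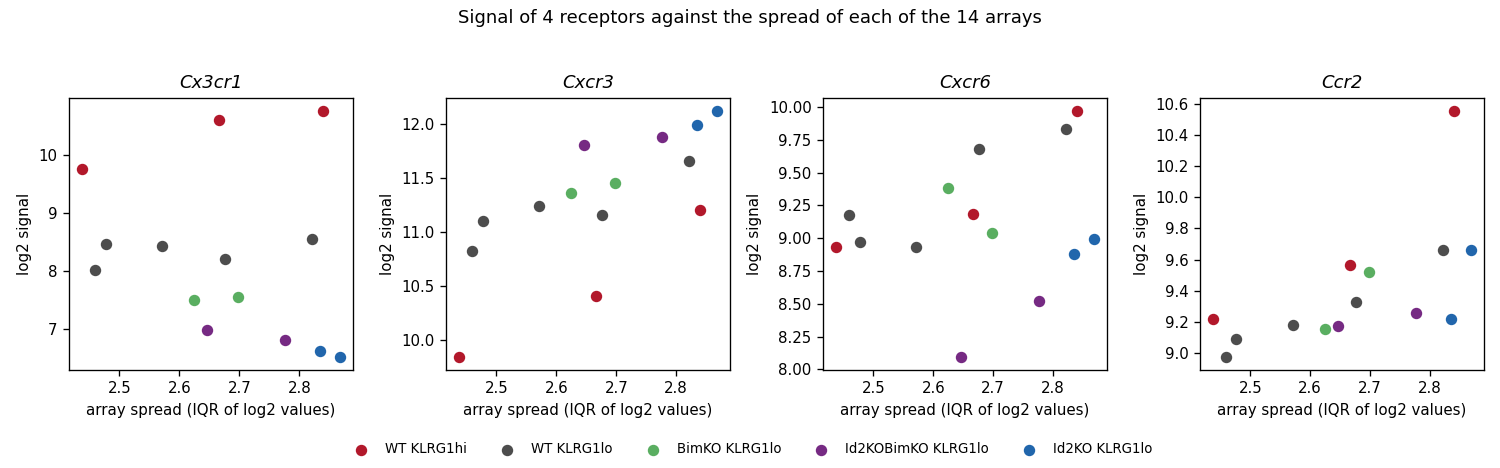
Log2 signal (y axis, differing between panels) of Cx3cr1, Cxcr3, Cxcr6 and Ccr2 against the spread of each array (x axis, interquartile range of its log2 values), with 1 point per array coloured by group. Within WT KLRG1hi the arrays rank the same way in all 4 genes as in spread (2.44, 2.67 and 2.84), while for Cx3cr1 no 2 groups overlap.

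The spread of the arrays moved with several of these values. On the KLRG1hi arrays it was 2.44, 2.67 and 2.84, in the same order as Cx3cr1, S1pr5, S1pr1, Cxcr3, Ccr2 and Cxcr6. Klf2 and Cxcr4 did not follow that order. On the WT KLRG1lo arrays it was 2.68, 2.82, 2.46, 2.48 and 2.57, and array 2, the widest, was the highest of its group in Cx3cr1, S1pr1, Klf2, Cxcr3, Cxcr6 and Ccr2. With the spread as a covariate, the calls of Cx3cr1 and S1pr5 between the sorts and between Id2KO and WT held.

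Other receptors of the family were read from a list of 25 chemokine and related receptors, 24 of them on the array and 16 tested. Between the WT sorts 2 passed as higher in KLRG1hi, Cx3cr1 and the chemerin receptor gene Cmklr1, and 3 passed as lower, Gpr183, Ccr7 and Cxcr5, against 0.679% and 0.263% of all genes, while the median over the 16 was -0.14. Cmklr1 was higher by 1.31 (SE 0.18, adjusted p = 0.000963). Gpr183, which senses oxysterols, fell by 1.49 (adjusted p = 0.000862), and Ccr7, which binds the chemokines of the T cell zone, fell by 1.38 (adjusted p = 0.00371). Cxcr5, which binds the chemokine of the follicle, passed as lower (adjusted p = 0.00371), but its KLRG1hi arrays read 4.56, 5.16 and 4.51, above 40%, 53% and 37.2% of the unnamed probe sets of the same array. KLRG1hi Cxcr5 thus lay at background, and the size of that difference was not measured. Between Id2KO and WT, 1 receptor passed as higher, Cxcr5, and 1 as lower, Cx3cr1, against 0.0831% and 0.0277% of all genes. Cxcr5 read 5.91 ± 0.27 (SD, n = 5) in WT KLRG1lo and 7.72 ± 0.12 (n = 2) in Id2KO, a rise of 1.80 (SE 0.22, adjusted p = 0.000547; 0.0659 without Id2KO array 2). Over both Bim backgrounds Cxcr5 rose by 1.28 (adjusted p = 0.00137), where 0.152% of all genes passed as higher. The WT KLRG1lo mean of Cxcr5 lay below the lowest S1pr5 value of any array (6.19). Both rises thus start from a level near background, and their size is uncertain. Gpr183 differed by 0.85 between Id2KO and WT (adjusted p = 0.275). Of the 10 ligands of the 8 genes' receptors 6 were tested and 0 passed in either comparison.

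**Figure D4:**
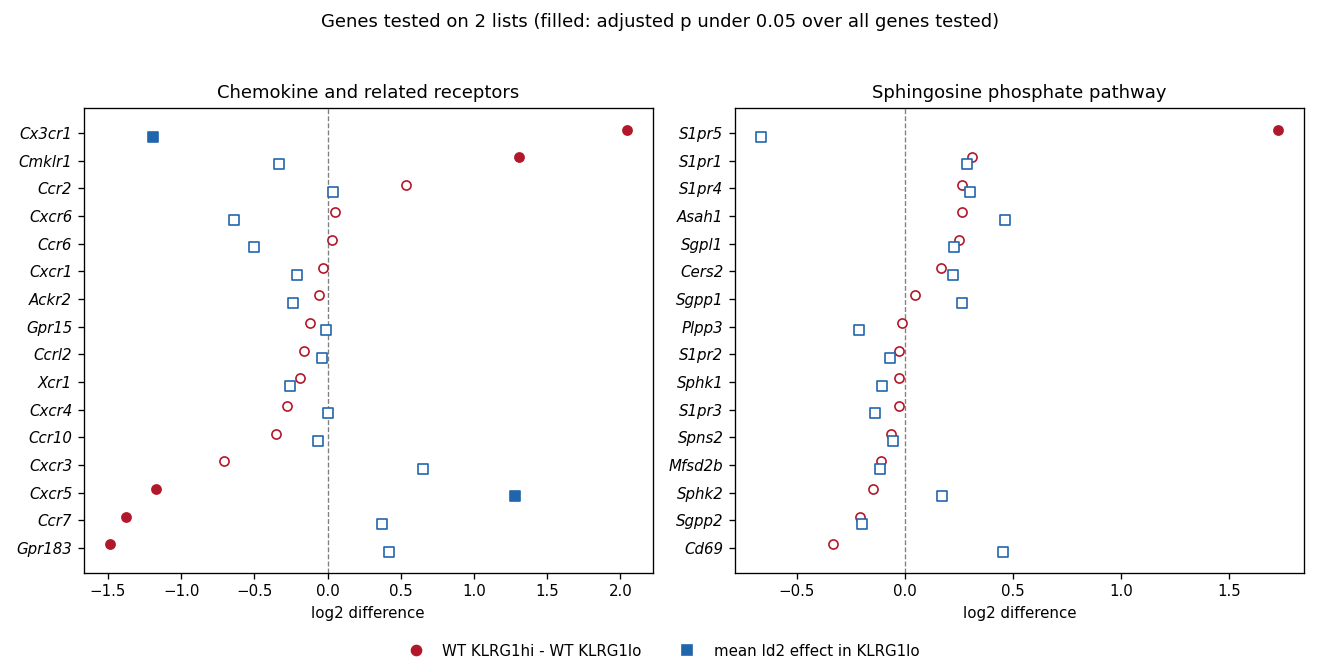
Log2 differences (x axis) of the 16 tested chemokine and related receptors and of the 16 tested genes of the sphingosine phosphate pathway, with circles for KLRG1hi minus KLRG1lo in WT, squares for the mean Id2 effect in KLRG1lo cells and filled symbols for an adjusted p under 0.05. In the first panel Cx3cr1 and Cxcr5 are filled for both with opposite signs (2.04 and -1.20 for Cx3cr1, -1.17 and 1.28 for Cxcr5; Cxcr5 was at background in KLRG1hi, and the WT KLRG1lo arrays enter both), and in the second S1pr5 is the 1 filled symbol (1.72).

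In the sphingosine phosphate pathway S1pr5 was the 1 of 16 tested genes that passed in either comparison, higher in KLRG1hi (against 0.679% of all genes) and lower in Id2KO (against 0.0277%), with list medians of -0.02 and 0.07. Between the sorts the lymphocyte receptor gene S1pr4 differed by 0.26 (adjusted p = 0.894), S1pr2 by -0.03, the kinase gene Sphk2 by -0.15, the lyase gene Sgpl1 by 0.25 and Cd69 by -0.33 (adjusted p = 0.943). In Id2KO, Cd69 differed by 0.82 and the ceramidase gene Asah1 by 0.51, each with an adjusted p of 0.275.

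Of 18 tested genes listed as regulators and targets of Klf2, 0 passed as higher and 2 as lower in KLRG1hi cells, Ccr7 and the interleukin 7 receptor gene Il7r (a difference of -1.48, adjusted p = 0.0017), against 0.679% and 0.263% of all genes, with a median of -0.01. Foxo1, which drives Klf2 transcription, differed by -0.50 (adjusted p = 0.377). In Id2KO 0 of the 18 passed, against 0.111% of all genes, with a median of 0.19. Of 34 tested G protein signalling genes 1 passed between the sorts, the small GTPase gene Rap1b (0.74, adjusted p = 0.0357), against 0.942% of all genes, a call kept in 9 of 20 alternative settings. It was lost without KLRG1hi array 2 or 3 (adjusted p = 0.177 and 0.112) and without WT KLRG1lo array 1, 3, 4 or 5 (0.0501, 0.0909, 0.0937 and 0.0915). In Id2KO 0 of the 34 passed and their median was 0.29. The lowest p among them was that of Rhoh, a GTPase of blood cells (0.81, adjusted p = 0.236).

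Transcription factors that act on these receptors in effector cells formed a list of 23, of which 21 were tested. In KLRG1hi cells 4 passed as higher, Zeb2, Bhlhe40, Prdm1 and Tbx21, and 1 as lower, Bach2, against 0.679% and 0.263% of all genes. Zeb2, a repressor that T-bet induces in terminal effectors, was higher by 1.61 (SE 0.19, adjusted p = 0.000206), Bhlhe40 by 1.54 (adjusted p = 0.00267), Prdm1, which encodes Blimp-1, by 0.95 (adjusted p = 0.00267) and Tbx21, which encodes T-bet, by 0.83 (adjusted p = 0.0203). Bach2 fell by 0.67 (adjusted p = 0.0467), a call kept in 6 of 20 settings and lost on leaving out any one of 7 of the 8 arrays (adjusted p = 0.0653 to 0.171). The Tbx21 call was kept in 14 of 20 settings. Among the losses were those without KLRG1hi array 2 (0.174) and without WT KLRG1lo array 4 or 5 (0.0565 and 0.0551). The Prdm1 call was kept in 18 of 20 settings. In Id2KO 0 of the 21 passed, against 0.111% of all genes, Zeb2 differing by -0.78 (adjusted p = 0.275) and Tbx21 by 0.02 (adjusted p = 0.929). Of 17 tested genes of tissue residence, a list that holds Cxcr6, 2 passed as higher in KLRG1hi cells, Bhlhe40 and the integrin gene Itga1 (1.21, adjusted p = 0.00665; 0.0517 without KLRG1hi array 2), and 1 as lower, the ATP receptor gene P2rx7 (-0.56, adjusted p = 0.0277), a call kept in 10 of 20 settings and lost without KLRG1hi array 2 or 3 (0.152 and 0.0671) or WT KLRG1lo array 1, 3, 4 or 5 (0.0781, 0.0658, 0.0534 and 0.0669). The Itga1 call was kept in 17 of 20 settings. The shares of all genes given above for higher and lower, 0.679% and 0.263%, apply to this list too. Its median was -0.32 between the sorts, and in Id2KO 0 of the 17 passed.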

How the data were processed

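RNA of 14 sorted cell samples was extracted with TRIzol, amplified, labelled with biotin and hybridised to 1-colour arrays, per the labels' protocols. What the authors deposited is 1 RMA intensity for each of 34760 probe sets on each array; RMA (no version) and the assembly mm9 are named per the submitters' processing notes. Their linear scale was read from the values (array medians 49.2 to 56.8), and log2 was taken without adding an offset. Scanner output was not used here, so scale and centring against scanner values are unknown, and the number of arrays limits the precision.

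Probe sets carried 1 gene symbol (21640), several (1321) or none (11799), and for 21553 the current symbol was found through the Entrez number in RefSeq (GRCm38.p6). Probe sets with several symbols named no gene, and the probe set of highest mean stood for a gene. Genes above the 40th percentile of an array on at least 2 arrays were tested. limma 3.58.1 in R 4.3.3 (with data.table, version 1.17.8) fitted group means to all 14 arrays, with 9 residual and 7.99 prior degrees of freedom, without a variance trend. Tests were two-sided with Benjamini-Hochberg adjustment over all 14438 genes, and an adjusted p under 0.05 counted as passed. The steps were tested on simulated data.

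Alternatives were no filter, a 60th percentile filter, quantile normalization, robust variances with a trend, the replicate number as a block, a model of the compared groups alone, probe sets of a gene averaged, an offset of 16, the array spread as a covariate, the background set as a block or alone, and single arrays left out. The 8 genes and the lists were chosen with earlier results of these data known. Named besides these 8, Id2, Bcl2l11 and Klrg1 were list genes that passed, otherwise up to 3 of a list with the smallest p (other list members named were chosen for their role after values were seen), and the 3 closest profiles of each gene.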

Additional observations from a re-analysis of the deposited data

Results flagged for a closer look

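Cxcr4 on WT KLRG1lo array 1 had a log2 signal of 8.787 and stood apart from the other 4 arrays of its group, which lay between 8.31 and 8.35. Its gap to the next array was 0.897 of the whole range of the group, above Dixon's limit for 5 samples. Chance alone passes that limit in about 1 in 20 groups, and 11 genes were examined in that group. Without this array the Cxcr4 difference between the WT sorts did not pass either.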

How the results depend on the processing

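For the 8 genes, 64 differences were refitted under 1208 alternative settings in all. Of these, 1106 kept direction and side of the threshold, 18 lost a call, 11 gained one, 0 reversed a called difference and 73 changed the sign of a difference that was not called. Sign changes were 0 of 151 for Cx3cr1, 1 for S1pr5, 4 for Cxcr3, 5 for S1pr1, 9 for Cxcr6, 14 for Klf2 and 20 each for Ccr2 and Cxcr4. The cause was not tested.

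Between the WT sorts the number of the 8 genes that passed was 2, but 3 with the array spread as a covariate, 3 with only the arrays of lower background, 4 with only those of higher background, and 2 to 3 with single arrays left out (3 without KLRG1hi array 3). Between Id2KO and WT it was 2, but 1 with the background set as a block, 1 with only the arrays of lower background, 3 with only those of higher background, 1 with an offset of 16, and 0 to 2 with single arrays left out. The counts in this paragraph are given without the share of all genes that passed in the same setting, which moved as well. A rise or fall in them is thus not a result about the 8 genes. For the mean Id2 effect the number of the 8 genes that passed was 1, but 3 with the array spread as a covariate and 2 with only the groups compared. For Id2KOBimKO against WT it was 1, but 3 with the array spread as a covariate and 0 to 1 with single arrays left out. Over all genes, the number that passed ranged from 42 to 1388 between the sorts (136 as reported) and from 4 to 2405 between Id2KO and WT (16 as reported), the highest with only the arrays of higher background in both.

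The replicate numbers of the titles were checked for pairing. Deviations from the group means of arrays with the same number correlated at -0.185, 0.061 and -0.524 between the WT sorts and at 0.209 and 0.156 between Id2KO and WT KLRG1lo. In the other pairs of groups they correlated at -0.441 to 0.41. The numbers were not taken to pair the samples. In a group of 2 arrays the deviations mirror each other, so this check cannot exclude a pairing. With the replicate block the number of the 8 genes that passed was 2 between the sorts, 0 between Id2KO and WT, 0 for the mean Id2 effect and 0 for Id2KOBimKO against WT. Cx3cr1 then differed by -1.65 between Id2KO and WT (adjusted p = 0.0862) and S1pr5 by -0.996 (adjusted p = 0.34).

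With 2 arrays in each mutant group, leaving one out left a lone array, which the fit assumes to vary like the other groups.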

Other observations

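The 7 genes whose arrays did not overlap between any 2 of the 5 groups were Cx3cr1, Cxcr5, P2rx7, Ankrd6, Cdca5, Izumo1r and Treml2, named here after their values were seen. Cxcr5 had the reverse order of Cx3cr1, with means of 4.74 in WT KLRG1hi, 5.91 in WT KLRG1lo, 6.51 in BimKO, 7.27 in Id2KOBimKO and 7.72 in Id2KO. In WT KLRG1hi Cxcr5 lay at background, above 37.2% to 53% of the unnamed probe sets of each array, so its level there is not a measured one. Both are chemokine receptors, one bound to the vessel wall ligand and one to the follicle ligand. P2rx7 differed by -0.38 over both Bim backgrounds (adjusted p = 0.346) and did not pass there.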
